A study of Mus musculus with 4 samples.

Results

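The miRNA described here are the mature miRNA of mouse whose miRBase number lies between 6000 and that of miR-8120, so that they were among the later additions to the mouse catalogue. They were chosen by their number and by a sum of at least 10 reads over the 4 libraries of the study. Of 1966 miRNA rows in the count tables, 709 carried a number in this range, and 111 of them (15.7%) had enough reads. These 111 are called the late-numbered miRNA below. The sum of reads chose them, so their presence is a description and is not tested. Small RNA was sequenced from primary cortical neurons that were taken from E16.5 mouse embryos and kept for 5 days in serum-free medium. There were 2 libraries from WT neurons and 2 from TgAD neurons. TgAD mice (genotype APP/PS1 mutant in the labels) make mutant forms of the amyloid precursor protein (APPswe) and of presenilin (PSEN1dE9), from transgenes that a mouse prion promoter drives. Neither genotype received a treatment, and the neurons of individual embryos had been cultured separately. The transgenes act in a cultured embryonic neuron here and not in an aged brain with plaques.

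A miRNA is usually cut from a hairpin transcript by the nuclear enzyme Drosha and then by Dicer, which leaves a duplex of a 5p arm and a 3p arm. One arm is usually loaded into an Argonaute protein, where its seed (bases 2 to 8) pairs with messenger RNA. A mirtron reaches Dicer by another route. Its hairpin is a short intron, or one end of a longer intron, so that splicing sets 1 or both hairpin ends in place of Drosha. Since introns end in AG, a 3p arm cut at the end of an intron carries AG as its last bases. Many entries with high numbers were annotated as predicted mirtrons from deep sequencing, with few reads each.

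The sequences below are those of the most abundant late-numbered miRNA, of those called between the genotypes and of those with no arm in their name. They are mature sequences from RefSeq on build GRCm38.p6, written 5′ to 3′ with the seed in capitals. The table held 99 of the 111 late-numbered miRNA and 619 of the 709 rows in the range. miR-6540-5p, miR-7224-3p, miR-6979-3p and miR-6956-3p had no entry and are named only.
miR-6944-3p (chr13:55477681-55477703, minus strand, Dbn1 intron): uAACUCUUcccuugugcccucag
miR-7226-3p (chr4:118210505-118210527, minus strand, Ptprf intron): uGACACAGccauucucugagcag
miR-7068-3p (chr8:72470016-72470036, minus strand, Cherp intron): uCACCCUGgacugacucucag
miR-7075-3p (chr8:107096025-107096045, minus strand, Terf2 intron): cAACCAUGucuucuuucccag
miR-7093-3p (chrX:134757711-134757731, plus strand, Armcx3 intron): uUUCCAUCugucauccugcag
miR-6899-3p (chr1:64042438-64042460, minus strand, Klf7 intron): uUGUCCUUcugugucuucugcag
miR-6906-3p (chr10:60126813-60126833, plus strand, Spock2 intron): gAAUUCCGgucuccucuccag
miR-6988-3p (chr19:6051371-6051392, plus strand, Syvn1 intron): uGACCUCUguaucuccugccag
miR-6994-3p (chr19:11923778-11923798, plus strand, Patl1 intron): aACGAUCUucuccgucuuugc
miR-6977-3p (chr17:56418850-56418871, minus strand, Ptprs intron): aAGGCGUUgccugacccugacc
miR-6540-3p (chr16:42303386-42303406, minus strand, Gap43 intron): uCUGAAGCuugcuuaccucca
miR-7688-5p (chr10:93433107-93433129, plus strand, between genes): uAGCUGGGcaugaucugaugagc
miR-8117 (chr5:50252823-50252843, plus strand, Gm7205 intron): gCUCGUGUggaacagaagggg
miR-8112 (chr6:71271745-71271764, plus strand, Krcc1 exon): uCUCCGCCaccuccaccgca
miR-8114 (chr1:153899989-153900009, plus strand, Glul exon): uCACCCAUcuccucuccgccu
miR-8094 (chr17:35251314-35251334, plus strand, Ddx39b exon): aACUGAAGgacaacgagaaga
miR-8103 (chr11:97063829-97063849, plus strand, Osbpl7 intron): uCUCCUGUucucuguucuccc
miR-8106 (chr9:122273930-122273951, minus strand, Ano10 intron): uGACUCUGuacauggcauuuau
miR-8120 (chr3:65659328-65659349, plus strand, between genes): uGUGCCUUgcaacuuccgagcc
miR-6236 (chr9:110281353-110281371, plus strand, between genes): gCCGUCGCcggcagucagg
miR-6240 (chr5:114851973-114851998, plus strand, between genes): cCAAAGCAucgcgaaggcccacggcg
The first 8 of these 21 sequences end in the bases AG, and the ninth, miR-6994-3p, stops 2 bases short of the end of its intron.

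The libraries held 2070204 (WT 1), 2752599 (WT 2), 2758525 (TgAD 1) and 4811010 (TgAD 2) counted reads. A count of 3 reads, taken as the limit that a count of 0 allows, corresponded to between 0.746 and 1.28 CPM (reads scaled to the size of the library, by the TMM method). This limit and the intervals below cover counting error only. Cultured neurons were checked against 8 neuron-enriched miRNA. Of these, 6 had at least 10 reads and their summed level was 22071 and 35919 CPM in WT against 88224 and 63411 CPM in TgAD neurons, most of it from miR-128-3p (log2 fold change 1.49). miR-138-5p, another of them, had 3885 and 3566 reads in WT against 3330 and 2616 in TgAD neurons (log2 fold change -0.63). miR-9-5p and miR-9-3p were at 0 in every library and miR-124-3p had between 1 and 7 reads, so the label rested on the other markers. All 3 oligodendrocyte markers were at 0. A count of 0 here does not by itself show that a miRNA or a cell type was absent. How reads with several loci were treated is not given, and miR-9-5p and miR-9-3p each have 3 loci. miR-128-3p, miR-138-5p and miR-218-5p have 2 loci each and at least 2237 reads in every library, while miR-219a-5p with 2 was at 0. With 1 locus, miR-126a-3p, miR-142a-3p and miR-338-3p were at 0, and miR-132-3p had at least 2228 reads in every library. The part of locus number in these counts was not tested. The 3 microglial and myeloid markers summed to between 9.96 and 14.7 CPM with miR-142a-3p at 0, and the vascular markers to between 718 and 901 CPM with miR-126a-3p at 0. The red blood cell markers summed to 1310 and 1331 CPM in WT against 957 and 646 CPM in TgAD neurons, nearly all of it miR-451a. The part of these marker differences in the comparisons below was not tested. In RNA from whole cultures, fewer cells of a type and less RNA per cell cannot be told apart.

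A second deposited table, of normalized reads, disagreed with the labels of the count tables. Its 4 columns gave whole reads for 100% of 674 rows within a tolerance of 0.001. The first column named as WT held the reads of TgAD 1 in 100% of rows, the second those of WT 1, and the first column named as transgenic those of TgAD 2. The second column named as transgenic (1926952 reads) matched none of the count tables, and WT 2 was in no column. The values below come from the count tables, whose samples follow the labels. When the columns were taken by their names, edgeR's quasi-likelihood test called 0 of the 480 miRNA tested, with 54 at an unadjusted p under 0.05. Counts are therefore also given without TgAD 1.

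The late-numbered miRNA were a small part of each library. They took 0.0987% and 0.0967% of the reads in WT and 0.123% and 0.111% in TgAD neurons. The means were 0.0977% ± 0.00143 and 0.117% ± 0.00843 (SD, n = 2 each), and both TgAD libraries were higher than both WT libraries. With 2 libraries against 2, the smallest p that an exact two-sided permutation test can give is 0.33, and this was the value. Without miR-6540-5p, the shares were 0.0586% and 0.0514% in WT against 0.0663% and 0.0600% in TgAD neurons (exact permutation p = 0.33). In the normalized table, taken by its column names, the difference turned to the opposite sign (-0.00581 percentage points).

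The share of listed rows with enough reads fell as the number rose. It was 54.7% of the 850 rows numbered below miR-1000, 36.8% of the 125 from miR-1000 to miR-1999, 28.6% of the 231 from miR-2000 to miR-5999, 15.7% in the range and 9.80% of the 51 above it. At least 1 read was found for 350 of the 709 rows (49.4%), while 359 had none and 239 had between 1 and 9. The median sum was 23 reads for the late-numbered miRNA against 803 for those numbered below miR-1000 that passed the same minimum. Within the range the share differed between number blocks. In the block from miR-6896 to miR-7118, 76 of 411 rows (18.5%) had enough reads. The neighbouring block from miR-7119 to miR-7645 held 4 of 67 (5.97%), that from miR-6000 to miR-6895 held 10 of 112 (8.93%), that from miR-7646 to miR-7700 held 14 of 88 (15.9%) and that from miR-7701 to miR-8120 held 7 of 31 (22.6%).

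**Figure D1:**
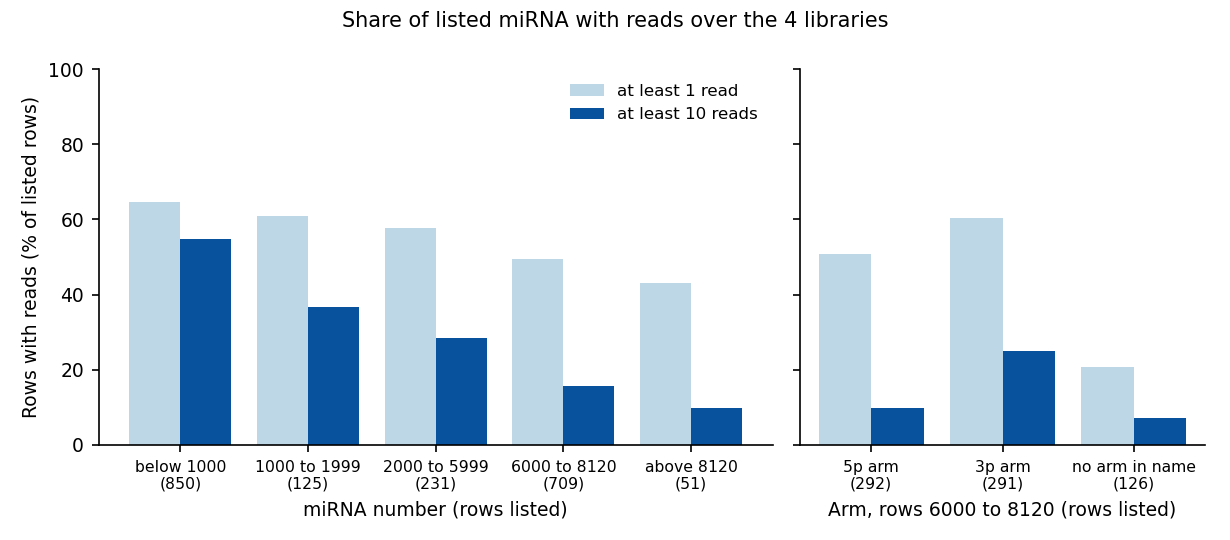
Percent of listed miRNA rows with at least 1 read (pale) and at least 10 reads (dark) summed over the 4 libraries, by miRNA number (left) and by arm for the rows numbered miR-6000 to miR-8120 (right), with the number of rows in brackets. The dark bars step down from 54.7% to 9.80% with the number, and within the range the 3p arms (25.1%) stand above the 5p arms (9.93%).

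Just inside the minimum, 11 of the late-numbered miRNA had 10 reads and 5 had 11, and just outside it 8 rows had 9. At 10 reads, miR-7055-3p of Slc17a7, the gene of a vesicular glutamate transporter, had 3, 0, 3 and 4 reads (in the order WT 1, WT 2, TgAD 1, TgAD 2), and miR-6966-3p had 0, 0, 7 and 3. At 9 reads, miR-6964-3p had 1, 2, 3 and 3, and miR-6239 had 1, 0, 8 and 0. The remaining miRNA at 10 reads were miR-7115-5p, miR-7071-3p, miR-7091-3p, miR-7652-3p, miR-6965-3p, miR-6943-3p, miR-7664-5p, miR-8106 and miR-7653-5p, and those at 11 were miR-6897-5p, miR-7063-5p, miR-7027-3p, miR-7663-3p and miR-8103. Those at 9 also included miR-6399, miR-6959-3p, miR-6946-3p, miR-6984-3p, miR-7243-3p and miR-7236-3p. Rows on the 2 sides of the minimum thus differed by single reads. Of all 111, 89 had a read in every library, 78 had a sum under 50 reads and 19 had a sum of at least 100.

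Reads were concentrated on a few of the miRNA. miR-6540-5p alone held 6070 of their 13410 reads (45.3%), and together with miR-6944-3p it held 57.5%. miR-6540-5p had 831 and 1248 reads in WT and 1553 and 2438 in TgAD neurons, or 354, 429, 566 and 606 CPM. Its hairpin lies in an intron of Gap43, which encodes a growth cone protein of extending axons. miR-6944-3p had 267, 309, 420 and 641 reads, or 114, 106, 153 and 159 CPM. It comes from an intron of Dbn1, the gene of drebrin, which binds actin in dendritic spines. After these came miR-7226-3p of Ptprf (341 reads), miR-8114 (301), miR-6540-3p (262), miR-6977-3p of Ptprs (236), miR-7068-3p (223), miR-7093-3p (189), miR-7075-3p (186) and miR-7224-3p (167). Ptprf and Ptprs encode receptor tyrosine phosphatases of axons and synapses, Cherp a calcium regulator of the endoplasmic reticulum, and Terf2 a protein that protects telomeres.

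**Figure D2:**
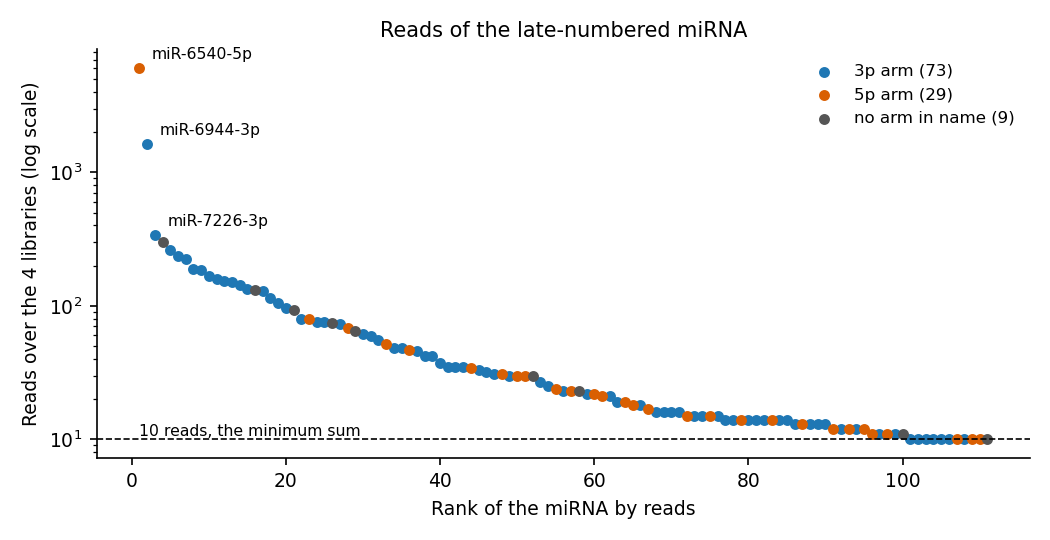
Reads of each of the 111 late-numbered miRNA summed over the 4 libraries (log scale), in order of their reads and coloured by arm, with the minimum of 10 reads as a dashed line. miR-6540-5p (6070 reads) and miR-6944-3p (1637) stand above the rest, which run from 341 down to 10 reads.

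The 3p arm was the arm with reads for most of these hairpins. Of the late-numbered miRNA, 73 were 3p arms, 29 were 5p arms and 9 had no arm in their name, although the range listed nearly as many 5p rows (292) as 3p rows (291). Enough reads were found for 25.1% of the 3p rows and 9.93% of the 5p rows. Among the rows numbered below miR-1000 the arms were about even, with 57.4% of 3p and 60.2% of 5p rows. The opposite arm had under 10 reads for 65 of the 73 and 0 reads for 31. For the 29 5p arms, the opposite arm had under 10 reads for 21 and 0 reads for 6. Over all rows of the range, at least 1 read was found for 50.7% of 5p and 60.5% of 3p rows. With the shares above for 10 reads, a low count on the opposite arm was thus usual in the range as a whole. Leaving out miR-6540-5p, 3p arms held 88.4% and 87.6% of the reads with a named arm in WT and 90.2% and 91.1% in TgAD neurons (exact permutation p = 0.33, the smallest possible). With miR-6540-5p the 3p share was 48.9% and 44.2% in WT against 46.2% and 47.6% in TgAD neurons, so the genotypes overlapped (exact permutation p = 1).

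Both arms had enough reads at 8 hairpins, and the 5p arm had more reads at 3 of them and the 3p arm at 5. At miR-6540 the 5p arm took 93.8% and 95.4% of the reads in WT and 97.2% and 96.0% in TgAD neurons, and 95.9% of the pooled reads (95% Wilson interval 95.3 to 96.3). miR-6540-3p had 55, 60, 45 and 102 reads. At miR-7070, in Fbxw9, the 5p share was 28.2% (19.8 to 38.6), with 24 reads on the 5p and 61 on the 3p arm. At miR-6948, in Acin1, it was 70.8% (56.8 to 81.8), with 34 and 14 reads. At miR-6516 (21 and 14 reads), miR-7066 (19 and 32), miR-7054 (17 and 21), miR-7063 (11 and 16) and miR-7664 (10 and 15), the pooled share was between 37.3% and 60.0%. miR-7066 lies in Ncan, the gene of the brain matrix proteoglycan neurocan.

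Most of the 3p arms ended where an intron ended. These are the annotated ends of the mature miRNA and not the ends of reads in these libraries. Many entries with high numbers were annotated as predicted mirtrons, so the comparison with lower numbers describes the annotation. Of the 62 late-numbered 3p arms with a position, 44 (71.0%) had their last base on the last base of an annotated intron (GENCODE annotation of GRCm38), 6 more ended 1 or 2 bases before it, and 45 (72.6%) ended in AG. The 44 held 80.5% of the reads of the 62. Of 198 3p arms numbered below miR-1000 with enough reads, 0 ended on an intron end and 10 (5.05%) ended in AG. Of the 44 numbered from miR-1000 to miR-5999 with enough reads, 10 (22.7%) ended on an intron end. Among the 192 3p rows of the range with under 10 reads, the share on an intron end was 51.04%. Read the other way, 44 of 142 3p rows on an intron end (31.0%) had enough reads, against 18 of 112 (16.1%) of those elsewhere. The 62 late-numbered 3p arms held 67.5% ± 11.8 pyrimidines (SD), against 53.7% ± 11.7 in the 198. The value was 66.1% ± 14.9 in the 192 rows of the range with under 10 reads. In the 44 numbered from miR-1000 to miR-5999 it was 60.1% ± 13.0. The 5p arms showed little of this pattern, since 1 of 28 began on the first base of an intron.

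**Figure D3:**
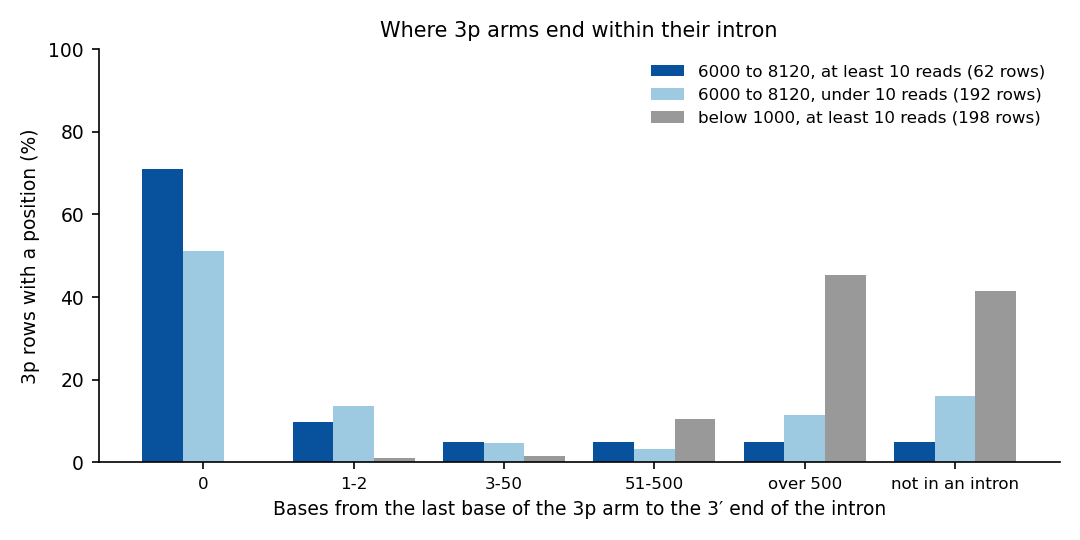
Percent of 3p rows by the number of bases between their last annotated base and the 3′ end of the intron that holds them, for rows numbered miR-6000 to miR-8120 with at least 10 reads (dark blue), the same range under 10 reads (pale blue) and rows numbered below miR-1000 with at least 10 reads (grey). The bars at 0 bases are 71.0%, 51.04% and 0%.

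Among the 82 hairpins with a position, the whole hairpin was the intron at 4. That of miR-6944 covered the 96-base intron of Dbn1 from end to end (chr13:55477681-55477776), and that of miR-7068 the 74-base intron of Cherp (chr8:72470016-72470089). Both are printed to show a hairpin whose 2 ends are splice sites, with the 3p arm in capitals.
Mir6944 hairpin: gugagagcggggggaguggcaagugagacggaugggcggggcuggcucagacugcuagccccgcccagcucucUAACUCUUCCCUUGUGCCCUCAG
Mir7068 hairpin: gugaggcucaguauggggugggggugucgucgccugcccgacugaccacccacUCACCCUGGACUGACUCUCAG
The others were miR-6958, in a 73-base intron of Dennd6b, and miR-7091, in a 79-base intron of Dnase1l1. miR-7070 had no hairpin position, but its 5p arm began on the first base and its 3p arm ended on the last base of an 86-base intron of Fbxw9. The introns of the 44 ranged from 73 to 36269 bases with a median of 527 bases, 14 of them under 150 and 16 over 1000. In a long intron only the 3′ end of the hairpin can be a splice site. miR-6899-3p, for example, ended the 36269-base intron of Klf7, a transcription factor of growing axons. The hairpin of miR-7093, called between the genotypes below, ended the 389-base intron of Armcx3 (chrX:134757631-134757731).
Mir7093 hairpin: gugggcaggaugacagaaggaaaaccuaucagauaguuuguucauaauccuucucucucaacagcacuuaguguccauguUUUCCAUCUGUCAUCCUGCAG

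Host genes were mostly protein-coding. Of the 99 late-numbered miRNA with a position, 73 lay in an annotated intron and overlapped no exon on their strand. Another 15 lay in an intron of some transcripts and overlapped an exon of others. Of the rest, 6 lay in exons, 4 between genes and 1, miR-7689-3p, antisense to a gene. The gene was protein-coding for 92, counting Sorcs2, which lies on the strand opposite to miR-7689-3p. The 6 in exons were miR-8114 and miR-8112 in the 5′ UTR of Glul (glutamine synthetase) and Krcc1, miR-7648-3p in the 5′ UTR of Alg10b, miR-8094 and miR-7658-5p in coding sequence of Ddx39b (an RNA helicase of splicing and export) and Plekhn1, and miR-7652-3p in the 3′ UTR of G3bp1 (a stress granule protein). Reads from fragments of those messenger RNA and reads from a miRNA cannot be told apart in these counts. A stretch of 18 bases of the mature sequence also occurred in a transcript other than the host for 8 late-numbered miRNA, among them miR-6899-3p, with a stretch shared with Atp9b. Levels of the host genes were not measured.

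Seeds were nearly all different, with 97 seeds among the 99 sequences. In one of the 2 shared seeds, miR-7063-3p and miR-6973b-3p differed in the bases after it, and the other was shared by miR-6948-3p and miR-7117-3p.
miR-7063-3p: uGCUCUCUgccccucuuaag
miR-6973b-3p: uGCUCUCUuacccuuccuag
miR-6948-3p: uGUCCUUCcugucugaccaca
miR-7117-3p: uGUCCUUCucuuucccccag
All 99 sequences had 1 mature locus in the RefSeq table. Of the 6 rows of the range whose sequence had more than 1, 0 reached 10 reads.

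Between the genotypes, 9 late-numbered miRNA were higher in TgAD neurons and 1 was lower. The comparison asked which miRNA differed in neurons that carry the familial Alzheimer's disease transgenes. It was made with edgeR's quasi-likelihood test on the whole count table, and a call needed an absolute log2 fold change above 0.6 with a Benjamini-Hochberg adjusted p below 0.1. Of the 111, 38 passed the filter on low counts and 10 (26.3%) were called, against 33.1% of all 496 miRNA tested. Higher calls were 23.7% of the 38 against 15.7% over all tested, and lower calls 2.63% against 17.3%. The median log2 fold change was 0.55 over the 38 and 0.03 over all tested, and 28 of the 38 were above 0. An upward median was not particular to the range. It was 0.47 over the 30 tested from miR-1000 to miR-1999 (6 called higher, 4 lower). It was 0.18 over the 34 from miR-2000 to miR-5999 (4 higher, 5 lower) and -0.04 over the 393 below miR-1000. A miRNA can pass this filter through the genotype where it is high, so the shares among those that passed are a description. When all 693 miRNA with at least 10 reads were tested, every late-numbered miRNA entered, although the sum can also be passed through 1 genotype. Then 10 of 111 (9.01%) were called higher against 10.5% of the 693, and 1 was called lower against 13.1%, with medians of 0.48 and 0.02. The tenth miRNA called higher in that fit was miR-8120 (2, 0, 4 and 24 reads).

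Across all 111, both TgAD libraries were above both WT libraries in CPM for 42 (37.8%), against 29.4% of all miRNA with at least 10 reads. Both were below for 13 (11.7%), against 27.1%. The genotypes overlapped for the remaining 56. A sum of 10 reads can be reached through the TgAD libraries, as for miR-6966-3p (0, 0, 7 and 3 reads). TgAD 2 held the most reads (4811010). The median sum was 23 reads in the 111 against 206 in all miRNA with at least 10, so the minimum lay closer to the 111. These shares are therefore a description. At a log2 fold change over 1 and an adjusted p under 0.01, 2 were called, miR-7093-3p and miR-8117, against 4.44% of all tested. Over the 441 tested miRNA with a sequence, log2 fold change went with GC content (Pearson r 0.35, Spearman rho 0.42, across miRNA that share the same 4 libraries). Within the 31 tested late-numbered miRNA with a sequence, miR-8117 left out, the values were -0.04 and -0.13. GC content was 54.0% ± 9.15 (SD) in the late-numbered miRNA against 48.3% ± 10.2 in those numbered below miR-1000 with enough reads. It was 51.5% ± 8.16 from miR-1000 to miR-1999 and 54.8% ± 9.73 from miR-2000 to miR-5999, so it was not particular to the range. With a correction for GC content, 8 of 38 were called, 7 of them higher and 1 lower, against 31.0% of all tested. The median was then 0.35, against -0.02 over all tested. The 6 tested late-numbered miRNA without a sequence entered that fit uncorrected, and 3 of the 7 higher calls (miR-6956-3p, miR-6979-3p and miR-7224-3p) were among them. Of the 32 with a sequence, 4 were called higher and 1 lower, and their median was 0.29 with the correction and 0.54 without it. Without TgAD 1, 7 were called, 5 of them among the 10. Without WT 2, 3 were called, and without TgAD 2, 5 were.

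miR-7093-3p was the higher call with the smallest adjusted p. It had 14 and 15 reads in WT and 64 and 96 in TgAD neurons, or 5.96, 5.15, 23.3 and 23.9 CPM. The TgAD libraries were close to each other and far above WT (log2 fold change 2.09 ± 0.31 SE, adjusted p = 0.00963 by edgeR's quasi-likelihood test). Its host Armcx3 encodes a protein of the outer mitochondrial membrane that acts in the transport of mitochondria along axons. It remained called in all 9 alternatives on the count tables that kept every library, and when any 1 library was left out.

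Among the 9 higher calls, miR-6956-3p and miR-6906-3p had the largest fold changes, and they had few WT reads. miR-6956-3p had 1, 6, 15 and 33 reads (log2 fold change 2.36 ± 0.65, edgeR adjusted p = 0.0424). miR-6906-3p, from an intron of Spock2, the gene of a brain proteoglycan, had 5, 3, 20 and 31 reads (2.26 ± 0.51, edgeR adjusted p = 0.0276). The genotypes did not overlap for either. miR-6956-3p was not called without WT 1 (edgeR adjusted p = 0.189) or without TgAD 2 (0.162), and miR-6906-3p was not called without WT 2 (0.148).

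miR-6899-3p of Klf7 rose from 6.81 and 5.84 CPM in WT to 14.6 and 19.4 CPM in TgAD neurons (log2 fold change 1.43 ± 0.34, edgeR adjusted p = 0.0308). miR-6994-3p of Patl1, a gene of messenger RNA decapping, rose from 7.24 and 4.808 to 15.7 and 13.7 CPM (1.29 ± 0.36, edgeR adjusted p = 0.0447). miR-6988-3p of Syvn1, which encodes a ubiquitin ligase of the endoplasmic reticulum, rose from 5.11 and 6.18 to 13.5 and 11.9 CPM (1.15 ± 0.34, edgeR adjusted p = 0.053). miR-6899-3p and miR-6988-3p ended on the last base of their introns, as did miR-7093-3p and miR-6906-3p, and miR-6994-3p ended 2 bases before it. miR-6979-3p, with no sequence entry, rose from 9.36 and 5.50 to 12.8 and 20.1 CPM (1.18 ± 0.42, edgeR adjusted p = 0.0859). Each of these 4 lost its call in some fits. miR-6899-3p was not called without WT 2 or without TgAD 2 (edgeR adjusted p = 0.129 and 0.109). miR-6994-3p was not called with total counts as library size, with DESeq2, without WT 2 or without TgAD 1 (adjusted p from 0.105 to 0.282). miR-6979-3p was not called with total counts, with DESeq2 or without any 1 library other than WT 1 (adjusted p from 0.102 to 0.366). miR-6988-3p was not called with total counts (edgeR adjusted p = 0.161) or with DESeq2 (0.215).

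The other 2 higher calls had a position and it was not at an intron end. miR-6956-3p and miR-6979-3p had no position. miR-8112, in the 5′ UTR exon of Krcc1, rose from 8.09 and 3.78 to 18.2 and 12.9 CPM (log2 fold change 1.40 ± 0.45, edgeR adjusted p = 0.0651). Its GC content was 70.0%, and it was not called with the correction for GC content (log2 fold change 0.95, edgeR adjusted p = 0.125), with DESeq2 (0.103), without WT 2 (0.316) or without TgAD 1 (0.236). miR-7688-5p, between genes, rose from 4.26 and 3.09 to 9.11 and 8.70 CPM (1.28 ± 0.39, edgeR adjusted p = 0.0571). miR-7688-5p and miR-6988-3p lost their calls with that correction, with log2 fold changes of 0.92 and 0.81 (edgeR adjusted p = 0.181 and 0.175), and whenever any 1 library was left out. miR-7688-5p also lost its call with total counts (0.161) and with DESeq2 (0.259).

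miR-8117 was the only late-numbered miRNA called lower, and its reads were in the WT libraries alone. It had 38 and 36 reads in WT (16.2 and 12.4 CPM) and 0 in both TgAD libraries. Against 3 reads in each TgAD library, its mean WT level of 14.3 CPM means a level at least 15.5-fold lower in TgAD neurons (edgeR adjusted p = 0.00834). The hairpin lies deep in a 64718-base intron of Gm7205, which is annotated as an unprocessed pseudogene. It was called in every fit that tested it on the count tables, also when any 1 library was left out.

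**Figure D4:**
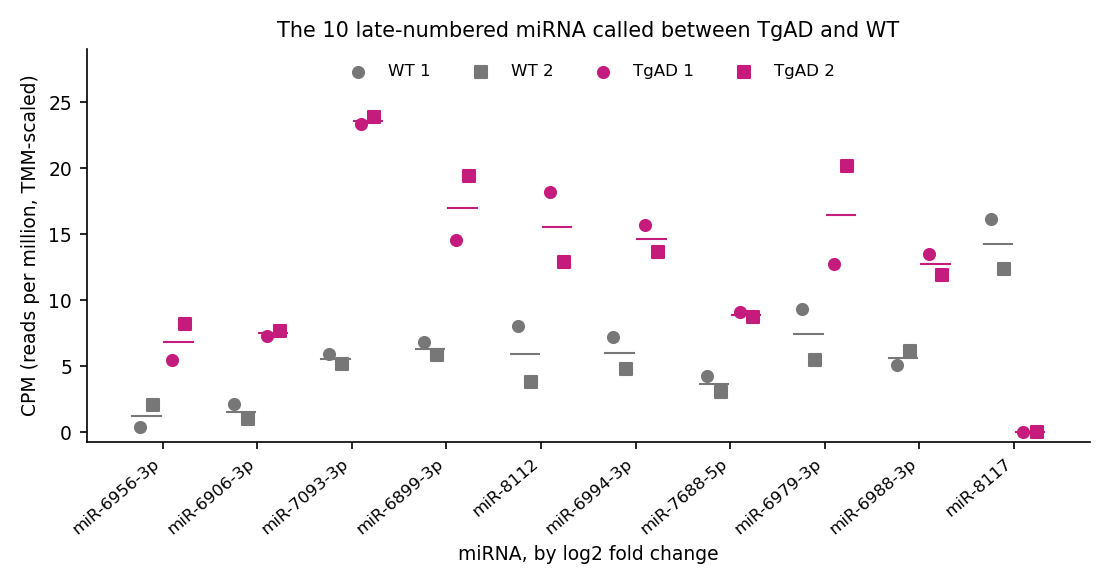
CPM of the 10 late-numbered miRNA called between TgAD (pink) and WT (grey) neurons, with a circle and a square for the 2 libraries of each genotype and a bar at their mean. For 9 of them both pink points lie above both grey points, and for miR-8117 both pink points lie at 0.

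Of the 10 most abundant late-numbered miRNA, all but miR-7093-3p were not called. miR-6540-5p was higher in both TgAD libraries and passed on its adjusted p but not on its size (log2 fold change 0.58 ± 0.20, edgeR adjusted p = 0.0768). Its partner arm miR-6540-3p was at 23.4, 20.6, 16.4 and 25.4 CPM, and the genotypes overlapped (-0.06 ± 0.32, edgeR adjusted p = 0.916). miR-6944-3p was also higher in both TgAD libraries but missed the threshold (0.51 ± 0.20, edgeR adjusted p = 0.121). miR-7226-3p, miR-7075-3p and miR-7224-3p likewise had both TgAD libraries above both WT libraries without a call, with log2 fold changes of 0.43, 0.46 and 1.07. With the correction for GC content, the log2 fold changes of miR-6944-3p, miR-7226-3p and miR-7075-3p were 0.14, 0.06 and 0.34. miR-6540-5p and miR-7224-3p had no sequence entry and were left uncorrected there. miR-6977-3p and miR-7068-3p had log2 fold changes of 0.03 and 0.05 and overlapped, and miR-7070-3p had 0.21 and overlapped. Among the 38 tested, the lowest log2 fold changes after miR-8117 were those of miR-6769b-3p (-0.79 ± 0.45, edgeR adjusted p = 0.261) and miR-6418-3p (-0.73 ± 0.48, edgeR adjusted p = 0.324).

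By arm, against the 15.7% called higher and 17.3% called lower over all tested, the 28 tested 3p rows had a median log2 fold change of 0.73 with 7 called higher and 0 lower, and the 5 tested 5p rows had a median of -0.03 with 1 higher and 0 lower. Of the 191 tested 3p rows numbered below miR-1000, 30 were called higher and 35 lower. Over the late-numbered miRNA of each arm without that filter, the medians were 0.54 (73 rows) and -0.00073 (29 rows). The 18 tested 3p arms on an intron end had a median of 0.84 with 4 called higher, and the 5 elsewhere with a position had a median of 0.03 with 1 called higher. Without the filter the medians were 0.53 and 0.44. The difference between these classes was not tested.

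**Figure D5:**
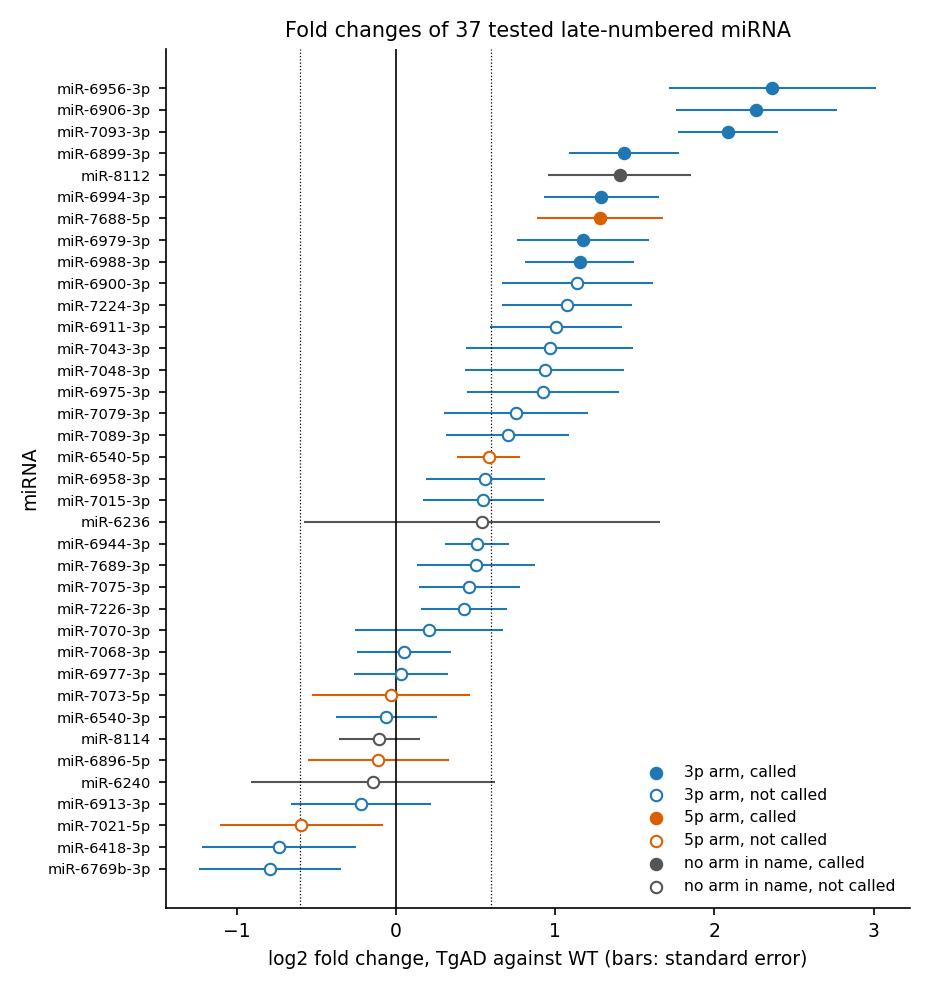
Log2 fold change (TgAD against WT) with its standard error for 37 of the 38 tested late-numbered miRNA, coloured by arm, filled where called, with dotted lines at 0.6 and -0.6. miR-8117 is left out because only a bound holds for it. Of the 37, 28 lie above 0, and the filled points run from 1.15 to 2.36.

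The 9 late-numbered miRNA with no arm in their name were of several kinds. miR-8114 of Glul had 62, 75, 67 and 97 reads, or 26.4, 25.8, 24.4 and 24.1 CPM, so that it was nearly level (log2 fold change -0.10 ± 0.25, edgeR adjusted p = 0.796). miR-6236 had 22, 1, 31 and 11 reads and miR-6240 had 31, 13, 36 and 13. Both were high in WT 1 and TgAD 1 and low in WT 2 and TgAD 2, a spread within each genotype that was larger than the difference between them (0.54 ± 1.12 and -0.14 ± 0.77, edgeR adjusted p = 0.759 and 0.916). Without WT 1, miR-6236 was called higher (edgeR adjusted p = 0.0163), and without WT 2 its sign turned. miR-6240 shared its seed with miR-330-3p, which also had at least 10 reads. miR-8094 had 8, 7, 4 and 4 reads, miR-8103 had 2, 1, 1 and 7, and miR-8106 had 2, 2, 0 and 6. In the fit of all 111 these 3 were not called (edgeR adjusted p = 0.308, 0.663 and 0.975).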

How the data were processed

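Small RNA of 2 WT and 2 TgAD cultures was analysed, grouped by the titles in the labels. Per the study's methods and the submitters' processing notes, the authors aligned reads without mismatches with Bowtie2 to GRCm38.p6 and made the deposited counts per mature miRNA with HTSeq and miRBase annotation. The deposited normalized table is a signal that the authors made by dividing counts by size factors, and its reads were recovered. How reads with several loci or strands were treated is not given in the sources used here, so a miRNA read and a host fragment on the same bases are counted alike.

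The members and gene lists were chosen with earlier results of these data known. edgeR 4.0.16 (R 4.3.3) was fitted on the whole count table with TMM scaling and its default filter on low counts, with genotype as the only term. A call needed a log2 fold change over 0.6 and a Benjamini-Hochberg adjusted p under 0.1. Standard errors were computed from the fold change and the F statistic. Alternatives used other scaling, filters, calling limits, DESeq2 1.42.0, robust fitting, GC correction (loess), a replicate block, the recovered reads and each library left out. Shares per library used an exact permutation test (scipy 1.17.1), where the smallest p for 2 against 2 is 0.33. The fit was tested on simulated data with a common dispersion for all miRNA. It called 70.8% of changes of log2 size 1 and 97.9% of those of log2 size 2, and 6.32% of its calls were false. A different spread for miRNA with few reads was not simulated. Depth was between 2070204 and 4811010 reads, and most members rest on under 50 reads, so that counting error is large. Named miRNA were the 10 with the most reads, all called, those with both arms present, those at the edge of the 10-read minimum, those at 3 or fewer reads in both libraries of 1 genotype with at least 10 in each library of the other, and those without an arm. The remaining names were chosen after their values were seen, as examples of hosts, lowest values or calls in other fits. Mature and hairpin sequences came from RefSeq (GRCm38.p6) and introns from GENCODE, both on the authors' build.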

Additional observations from a re-analysis of the deposited data

Results flagged for a closer look

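The second column named as transgenic in the normalized table held a library that no count table matched and that entered no comparison on the count tables. All 9 miRNA called higher in TgAD neurons stood above both WT libraries there, in RPM (reads scaled to the total of each library). miR-7093-3p was at 28.5 RPM, against 6.76 and 5.45 in WT. miR-6979-3p was at 20.8, miR-8112 at 16.1, miR-6994-3p at 14.0, miR-6899-3p at 9.86, miR-6988-3p at 8.30, miR-6956-3p at 7.27, and miR-7688-5p and miR-6906-3p were each at 5.71. miR-8117 was at 0 there, as in both TgAD libraries. The 9 had been chosen as low in those same WT libraries, so this order was in part set by the choice. Of all 666 miRNA in that table with at least 10 reads, 25.8% stood above both WT libraries and 59.5% below both, and of the 99 late-numbered miRNA 44.4% and 31.3%. miR-6540-5p (331 RPM, against 401 and 453 in WT), miR-7226-3p (17.6, against 23.7 and 27.6) and miR-7224-3p (6.75, against 7.73 and 10.2) stood below both WT libraries, although both TgAD libraries were above them. The genotype of that column rests on its name alone, in a table whose other names disagree with the count tables, and no test was made. Of the 99, 86 had a read in the column, and they took 0.0982% of its reads.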

How the results depend on the processing

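Against 10 called late-numbered miRNA (9 higher, 1 lower), total counts as library size gave 6 (5 higher), DESeq2 5 (4 higher), the stricter limits 2 (1 higher) and leaving out 1 library between 3 and 9 (2 to 8 higher). Without WT 2, 3 of the 10 were called, and without TgAD 2, 5 were. With at least 10 reads in every library, 0 were called lower, since miR-8117 was then not tested. Over all miRNA, the stricter limits gave 22 calls. The normalized table taken by its column names gave 0 calls of late-numbered miRNA in either direction and 0 over all miRNA. Taken by those names, the WT group held the reads of TgAD 1 and WT 1, so it mixed the genotypes of the count tables. Which labels are right was not tested. Against a median log2 fold change of 0.55, total counts as library size gave 0.29 (with -0.23 over all tested, a shift of the whole scale), no filter 0.47, at least 10 reads in every library 0.49, at least 10 reads over the 4 libraries 0.48, the GC correction 0.35, the recovered reads 0.42, and leaving out 1 library 0.53 to 0.63. The labels do not say whether samples of the same number were paired, and they name no shared litter. The correlation of same-numbered deviations was 0.22, which cannot show whether they were paired. With the replicate block, 12 of 38 were called, 11 higher and 1 lower, against 37.9% of all tested, and the 10 were among them.

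Minimum sums of 1, 5, 20 and 50 reads gave 350, 176, 62 and 33 rows in place of 111. The genotype difference in the share of library reads (0.0189 percentage points) turned to -0.00581 in the normalized table. That in the 3p share (0.43 percentage points) ran from -1.93 (without WT 2) to 2.78 when 1 library was left out. Among miRNA that were not called, signs turned as follows. miR-6977-3p fell to -0.25 with total counts, -0.010 without a filter and -0.29 with the GC correction, and ran from -0.20 to 0.28 when 1 library was left out. miR-7068-3p was at -0.21 with total counts and -0.27 with the GC correction, and ran from -0.13 to 0.27. miR-7070-3p was at -0.037 with total counts and -0.15 with the GC correction, and ran from -0.35 to 0.64. miR-6236 was at -0.16 with the GC correction and ran from -0.83 to 4.17, and miR-6240 was at 0.30 in the normalized table and ran from -1.50 to 0.83. miR-6540-3p was at 0.77 in the normalized table and ran from -0.39 to 0.11, and miR-8114 was at 0.030 there. Of the 111, 78 rest on under 50 reads.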
